A study of Populus tremula x Populus alba with 3 samples.

Results

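In shoot apices of hybrid poplar, 7 genes were lower in plants over-expressing CsDML than in wild type. They are grouped here under rapidly induced stress and touch response genes of Arabidopsis. They are 7 of the 318 genes in the authors' deposited table of differential expression. Of them, 6 were taken by the name of their Arabidopsis best hit, namely CBF2, RRTF1, CML37, XTH23, EXO and MIOX4. The remaining one, Potri.006G138700, was taken by its gene ID and has no best-hit name. The members were chosen by these names and this ID from genes whose deposited fold change and adjusted p were known, so their direction and size describe the choice and carry no test.

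The plants were Populus tremula x Populus alba, clone 717-1B4. Wild type gave 1 library, and the transgenic lines CsDML OX1 and CsDML OX3 gave 1 library each, all from apices after 28 days in SD. SD is taken to mean short days, the signal on which poplar stops growing and sets buds. CsDML is taken to be a chestnut DEMETER-like gene, whose proteins remove methylated cytosine from DNA. Each line was sequenced once, the sources used here name no promoter for the transgene, and both groups share the clone, the tissue and the 28 days.

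In Arabidopsis, several of the best hits belong to the early layer of responses to cold, wounding, touch and oxidative signals. Membership of this layer was not checked for MIOX4, a metabolic enzyme, or for EXO, described below by growth. Transcripts of the layer can change within minutes. It joins calcium sensors, transcription factors of the AP2/ERF class and enzymes that act on the cell wall. Cell wall genes of this layer also respond to growth hormones. These roles come from Arabidopsis and are background for the poplar genes.

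The authors' deposited table gives each gene 1 log2 fold change, 1 mean level in log2 CPM (counts scaled to the library total) and 1 p-value, plain and adjusted, for the 2 over-expressing libraries together against wild type. The base of the fold change was read as 2 from edgeR's column names. A gene is said to have fallen or risen where the adjusted p was under 0.05. Of 41335 genes tested by the authors, 160 fell, which is 0.387%, and 43 rose, which is 0.104%. All 7 members are among those that fell, and since the fold change chose them nothing is read from that count. At an adjusted p under 0.01 there were 3 members among 71 lower genes (0.172% of those tested), and at 0.1 all 7 among 239 (0.578%). Wild type had a single library, so the spread between wild-type apices was not measured.

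The read counts behind these values could be worked out. edgeR by default adds the equivalent of 2 reads per library to the mean level and 0.125 reads to the fold change, so 2 deposited values give 2 unknowns, the wild-type reads and the reads of the over-expressing lines. That the authors kept these defaults is an assumption, since the sources used here do not state them. The scale came from 14 higher genes outside the members that have no wild-type reads, and put the mean library at 5699000 reads (5674000 to 5734000 over the 14 genes), so that 1 read per library is 0.175 CPM. With this scale, 49 of 51 genes outside the members with under 30 wild-type reads came out within 0.1 of a whole number. The 51 include the 14 genes that set the scale, whose value of 0 was fixed by that use. Of those 51, 37 had at least 1 read, and 35 of the 37 were whole, or 94.6%, where values spread evenly would give 20.0%. The sum over both over-expressing libraries was whole within 0.1 in 12 of 12 lower genes outside the members with under 13 such reads. The counts below are on the scale of a mean library, and the share of each line in a sum was not recovered.

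**Figure D1:**
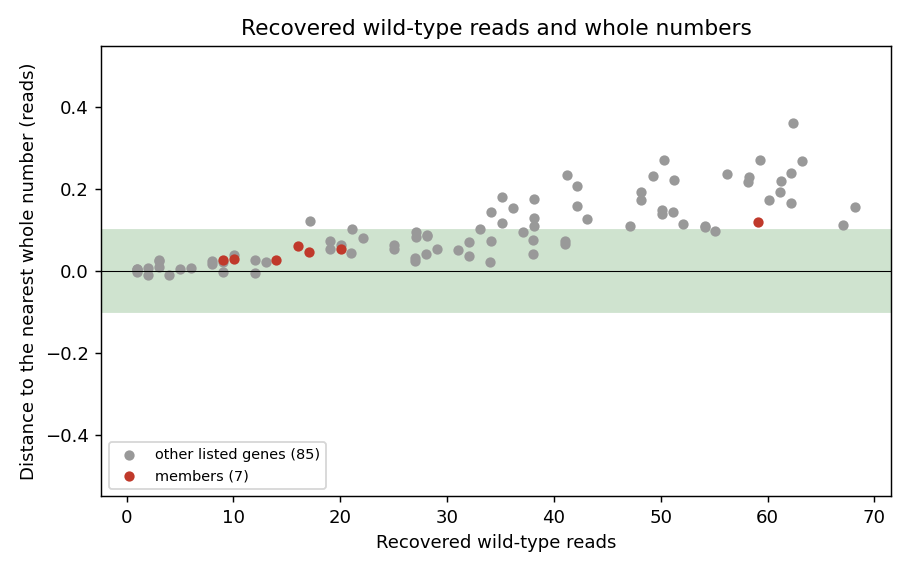
Recovered wild-type reads of listed genes with 1 to 70 reads (x axis) and their distance to the nearest whole number in reads (y axis), members in red and other listed genes in grey. The band marks a distance of 0.1. Members other than EXO lie inside it, and EXO lies just outside at 0.121.

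The recovered counts were small. The 7 members together had 145 reads in the wild-type library and 23 in the 2 over-expressing libraries added up. Wild-type reads ran from 9 to 20 for 6 members, and EXO had 59. In the over-expressing lines 3 members had no read in either library, 3 had 2 or 3 reads in the sum, and EXO had 15. For each member even the sum of both lines was below the wild-type count, so on this scale neither line reached wild type. Fewer cells expressing a gene and less RNA per cell cannot be told apart in whole apices. Intervals given below are 95% exact intervals and cover counting error only.

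**Figure D2:**
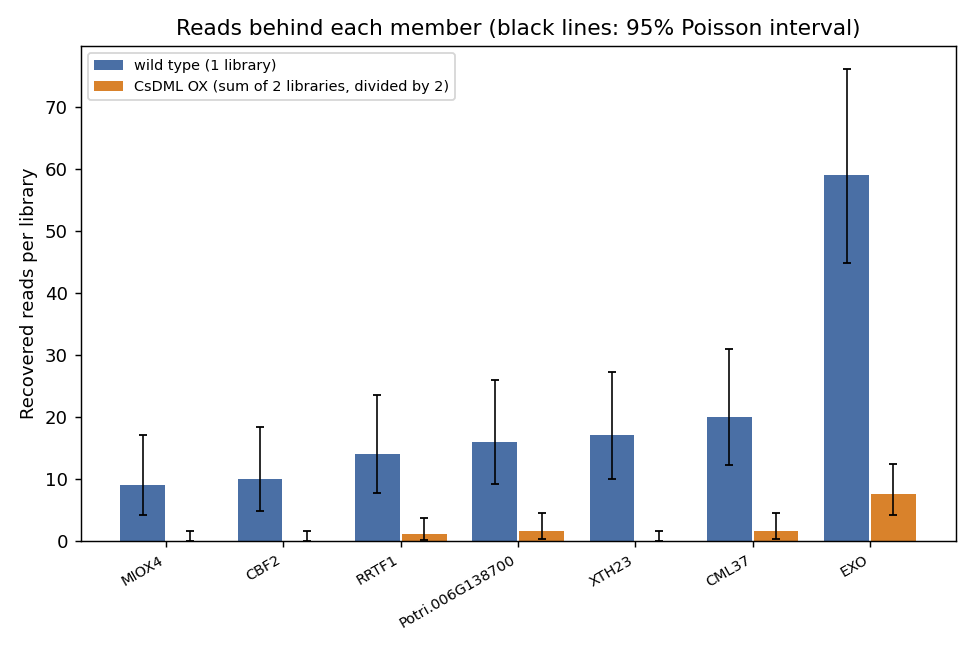
Recovered reads per library (y axis, linear) for the 7 members, with the wild-type library in blue and the mean of the 2 over-expressing libraries in orange. Black lines are 95% exact Poisson intervals or, at 0, the limit of 3 reads over the 2 libraries, and cover counting error only. EXO had 59 wild-type reads against 7.5 per over-expressing library, and XTH23, CBF2 and MIOX4 had 0 in the latter.

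Among the members, 3 encode putative transcription factors. CBF2, a cold-induced activator of freezing tolerance genes in Arabidopsis, had 10 reads in wild type (interval 4.80 to 18.4) and 0 in both over-expressing libraries (upper limit 3 reads over the 2 libraries). Its gene is Potri.001G110800 on chromosome 1, and its wild-type level was 1.75 CPM, or 2.74 CPM if the added constants are not removed. Set against that limit, with the 10 wild-type reads taken as exact, CBF2 was 6.67-fold lower. Counting error in wild type is not in that value. The value of -6.34 that the authors' deposited table lists (log2 scale, adjusted p 0.0188) depends on the added constant and is no measured ratio.

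RRTF1, an AP2/ERF factor induced by redox and wound signals in Arabidopsis, had 14 reads in wild type (interval 7.65 to 23.5). The 2 over-expressing libraries together had 2 reads. Per library RRTF1 was 14-fold lower from the reads, with an interval of 3.22 to 127. The authors' deposited table lists its log2 fold change as -3.66 (Potri.009G101900, chromosome 9, adjusted p 0.0189). Potri.006G138700 on chromosome 6 is described as an integrase-type DNA-binding protein, a label used in Arabidopsis annotation for AP2/ERF-domain proteins. It had 16 wild-type reads (interval 9.15 to 26.0) and 3 in the sum of both lines. From the reads it was 10.7-fold lower per library, with an interval of 3.05 to 57.1. Its log2 fold change is -3.31 (adjusted p 0.0162), as listed by the authors' deposited table. The 3 regulators together had 40 reads in wild type and 5 in the sum of the over-expressing libraries, with CBF2 the one at 0 there.

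CML37, a calmodulin-like calcium sensor induced by wounding in Arabidopsis, had 20 reads in wild type (interval 12.2 to 30.9) and 3 in the sum of both lines. These correspond to 3.51 CPM in wild type and 0.263 CPM in the over-expressing lines. From the reads it was 13.3-fold lower per library, with an interval of 3.95 to 70.1. The log2 fold change that the authors' deposited table holds was -3.64 (Potri.002G001400, chromosome 2, adjusted p 0.00144). The best-hit entry for this gene also carries the name CML39, a close relative, so the 2 names are not separated here.

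Of the members linked to the wall and to growth, XTH23 had no read in either over-expressing line and EXO kept some. XTH23 encodes an enzyme that cuts and rejoins xyloglucan, the polymer that ties cellulose fibrils together. It had 17 wild-type reads (interval 9.90 to 27.2), or 2.98 CPM, and 0 in both over-expressing libraries (upper limit 3 reads over the 2 libraries). Against that limit, with the 17 wild-type reads taken as exact, it was 11.3-fold lower. Its fitted value, -7.10 on the log2 scale, was the steepest fall that the authors' deposited table lists (Potri.018G095200, chromosome 18, adjusted p 9.54e-05). That value depends on the added constant and is no measured ratio, so its rank is not one of measured folds.

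EXO, an extracellular protein tied to brassinosteroid-promoted growth in Arabidopsis, had the most reads of the 7. Its recovered counts, 59.1 in wild type and 14.9 in the sum of both lines before rounding, were the member values farthest from whole numbers. Rounded, these are 59 reads (interval 44.9 to 76.1) against 15, or 10.4 CPM against 1.32 CPM. The fall from the reads was 7.87-fold per library, with an interval of 4.41 to 14.9, the narrowest of the 4 members with reads in both groups. EXO had the smallest adjusted p of the members, 1.37e-07, and a log2 fold change listed as -2.97 by the authors' deposited table (Potri.005G163600, chromosome 5). It was also the only member with a mean level of at least 1 on the log2 CPM scale.

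MIOX4, an enzyme that opens the ring of myo-inositol to give glucuronic acid for wall polymers, had 9 reads in wild type (interval 4.12 to 17.1), or 1.58 CPM (2.57 CPM if the added constants are not removed). No read was recovered in either over-expressing library (upper limit 3 reads over the 2 libraries). MIOX4 was 6-fold lower against that limit, with the 9 wild-type reads taken as exact. The authors' deposited table lists -6.19 on the log2 scale (Potri.018G069700, chromosome 18, adjusted p 0.0357), a fitted value that depends on the added constant. The 9 reads of MIOX4 were the fewest wild-type reads of all 239 lower genes in the table.

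A second gene of the MIOX family was listed in the other direction. For MIOX1 (Potri.008G144500) the authors' deposited table lists a log2 fold change of 0.94 and an adjusted p of 0.0640, which did not pass the threshold. Its level worked out to 336 CPM in wild type and 645 CPM in the over-expressing lines. The difference between the fold changes of MIOX4 and MIOX1 was not tested.

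**Figure D3:**
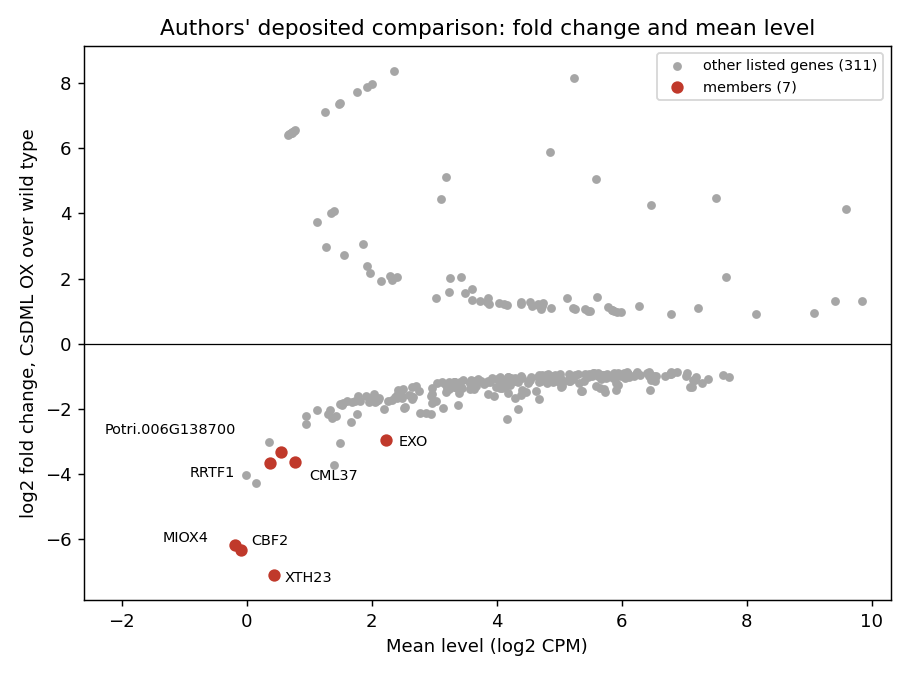
Mean level in log2 CPM (x axis) against the log2 fold change of CsDML OX over wild type (y axis) for the 318 listed genes, members in red. The members lie at the lower left, with a median level of 0.43 and a median log2 fold change of -3.66. Over all 239 lower genes these medians are 4.22 and -1.21.

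The members stood at the steep, low-level end of the listed genes, which for the fold follows from their choice. Their median log2 fold change was -3.66, or 12.6-fold lower, against -1.21 over all 239 lower genes and -1.09 over all 318 genes of the authors' deposited table. Of the 12 steepest falls, 7 were members, and the other 5 had no best-hit name. Mean level was not named in the rule, but among listed genes it is tied to the fold. The low level of the members is therefore not independent of their choice. Mean level was under 1 on the log2 CPM scale for 6 of 7 members. It was under 1 for 11 of all 239 lower genes, a count that includes those 6. Levels here are scaled to library totals and not to gene length. Among those 11 genes the smallest log2 fold change listed by the authors' deposited table was -2.22, so smaller falls at such levels are not in view.

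**Figure D4:**
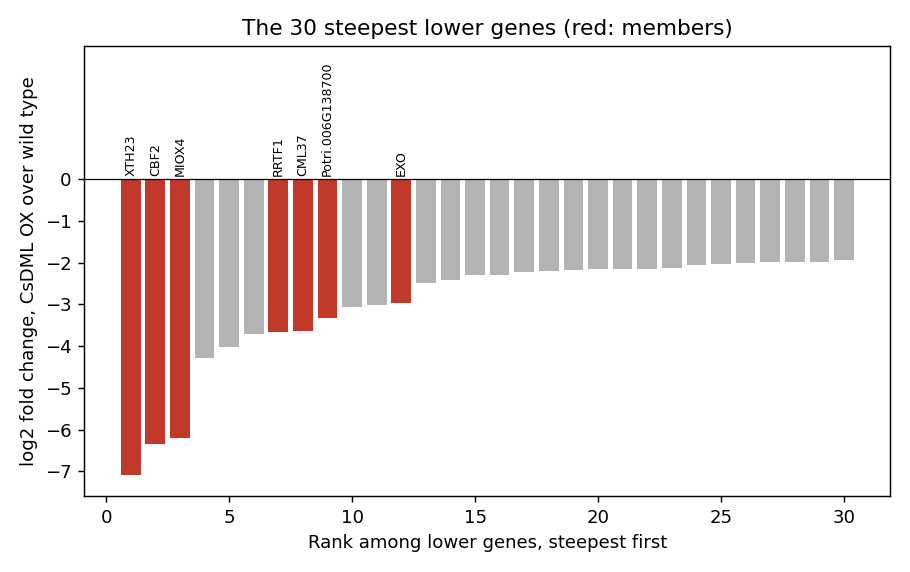
Log2 fold change of CsDML OX over wild type (y axis) for the 30 steepest lower genes of the authors' deposited table, ordered from the steepest (x axis). Members, in red, take ranks 1, 2, 3, 7, 8, 9 and 12, and their names stand above the bars. The values at ranks 1, 2 and 3 depend on the added constant, since these genes had no read in either over-expressing line.

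The 5 listed genes nearest to the members in fold and level, by distance from the members' medians on the 2 log2 scales, show how few reads separate the calls. The comparison holds 3 libraries, so likeness here means a like pair of values and no shared pattern across samples. A gene with a SecA-type translocase best hit (Potri.002G078200) had 10 wild-type reads and 1 read in the sum of both lines. The authors' deposited table puts its adjusted p at 0.0685, while CBF2, with 10 reads and 0, was at 0.0188. Potri.018G027200, which has no description, had 13 reads against 3, and the authors' deposited table puts its adjusted p at 0.0751. RRTF1, with 14 against 2, was at 0.0189 by the same authors' deposited table. An unnamed gene (Potri.005G194400) with 12 reads against 1 fell (adjusted p 0.0208, the authors' deposited table). The other two were a DUF789 gene (Potri.013G149400, 34 reads against 5, adjusted p 3.62e-06) and an ARM repeat gene (Potri.017G135000, 34 against 8, adjusted p 2.87e-05), per the authors' deposited table. Between Potri.002G078200 and CBF2, and between Potri.018G027200 and RRTF1, counts differed by at most 1 read in each group. In each of these pairs the genes lay on either side of the threshold.

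The lowest counts seen among listed genes are given here for the 2 directions, and no limit of detection was worked out. No gene with fewer than 9 wild-type reads was listed as lower. Among higher genes with no wild-type read, 14 in number, the lowest sum over the over-expressing libraries was 21.1 reads, or 10.5 per library.

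Outside the members, the list of related stress and touch genes took in 7 rows, of which 6 fell and none rose, with 1 listed higher. Of all 318 listed genes, 239 were lower, 160 fell and 43 rose, so most listed genes lean the same way, and how many genes of these families were tested is not known here. The list covered the CBF, ERF, CML, XTH, EXO, MIOX, ZAT, WRKY and JAZ families and similar ones, 27 symbol patterns in all, plus descriptions. Of the 6 that fell, 4 entered by letters of an alias and have other roles. They are CAMS1, a triterpene synthase (Potri.019G079200, -2.15), both homologues of NACK1, a kinesin of cell division (Potri.015G044600, -1.78, and Potri.012G054400, -1.75), and the RNA-modification gene CBF5 (Potri.006G044100, -1.02), log2 fold changes per the authors' deposited table. That leaves 3 rows. A gene described as calmodulin binding fell by 1.62 (log2, Potri.004G017500, adjusted p 0.000138, the authors' deposited table), and a gene of the LEA hydroxyproline-rich family fell by 1.99 (Potri.009G158900, adjusted p 1.47e-05). Both entered by words of their descriptions only, and a stress or touch role was not checked for either. The remaining row is MIOX1. No row named for a WRKY, JAZ, ZAT or further CML or XTH gene was in the authors' deposited table. Genes absent from it had an adjusted p of at least 0.1 or were not tested, which does not show that they were unchanged.

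The members lie on 6 chromosomes, read from their IDs, with XTH23 and MIOX4 both on chromosome 18. No other listed gene shares a best hit with any of them. Within 2000 ID units, which follow gene order and are not bases, 5 members had no listed neighbour. The listed IDs are spaced in wide steps, so this window covers far fewer than 2000 genes. Near CML37 the cell cycle kinase gene CDKB2;1 fell by 1.21 (Potri.002G003400), and near RRTF1 a hydrolase gene rose by 1.10 (Potri.009G103800, adjusted p 0.0489), per the authors' deposited table. The sources used here do not say how reads of near-identical poplar copies were divided.

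Few markers of tissues that an apex sample can hold were fixed, and the authors' deposited table lists 318 of the 41335 genes tested (0.769%). Markers were symbols that had to match as whole names, so longer forms of a symbol would be missed. A gene can carry more than 1 symbol. Of 14 leaf symbols 1 was listed, LHCA3, which rose by 1.43 (Potri.014G198400). Of 7 xylem symbols 1 was listed, XCP1, which fell by 1.75 on the log2 scale (Potri.004G207600), both in the authors' deposited table. None of 3 phloem and 5 shoot meristem markers was listed, so the labelled tissue could not be checked here. Both genes with a plastid-encoded best hit rose, by 3.07 and 2.05 (Potri.013G140500 and Potri.011G074200, the authors' deposited table). The part of these in the members' values was not tested.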

How the data were processed

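RNA from apices (1 wild-type library, 2 CsDML OX libraries) was sequenced from a directional kit, per the labels' protocols. FastQC, TopHat and edgeR are the authors' tools per the submitters' processing notes. Their versions, the build, the annotation, the counter and the kind of test were not given in the sources used here. All of the authors' deposited log2 fold changes, log2 CPM means, p-values and adjusted p-values (per the file headers) were used as they stand. The number of genes tested followed from p, rank and adjusted p, and Benjamini-Hochberg values over 41335 tests matched 318 of 318 rows (relative tolerance 1e-06).

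Members and lists were chosen with earlier results of these data known, and the recovery of reads was added after the values were seen. Reads were solved from fold and mean level with the default constants of the authors' edgeR, taking the mean level as the mean over 3 libraries. The solution was tested on simulated data made with the same constants and with libraries of like size. That test therefore does not bear on the assumed constants or on unequal libraries. Poisson and conditional binomial (Clopper-Pearson) intervals, at 95%, used scipy 1.17.1. Folds against 0 used 3 counts over the group, a one-sided limit, and took the wild-type count as exact. No test was added. Genes named outside the members are the rows of the related list, the 5 nearest lower rows, neighbours within 2000 ID units and tissue markers. Alternatives were thresholds of 0.01 and 0.1, an absolute log2 fold change of at least 2, a mean level of at least 1, members by name only, other weights in the mean level, constants kept and narrower lists. Sequences were not used here.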

Additional observations from a re-analysis of the deposited data

How the results depend on the processing

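All 7 members pass a threshold of 0.1 and an absolute log2 fold change of at least 2. Both outcomes were fixed beforehand. Every listed gene has an adjusted p under 0.1, and the members were chosen with their fold known. When taken by name only, 6 remained. At an adjusted p under 0.01 there were 3 (XTH23, CML37 and EXO), with a mean level of at least 1 on the log2 CPM scale 1 (EXO), and with a read in the over-expressing lines 4. The median wild-type level, 2.81 CPM, was 2.001 CPM with equal group weights and 3.66 CPM with the constants kept. With equal weights 22.7% of 44 recovered counts were whole, against 94.6% of 37. The scale was fitted under the main weights and not refitted for equal weights, so these shares do not compare the weights alone. The related list, 13 fallen genes with the members, held 6 without them, 9 without aliases and 10 by symbol. Recovered depth, 5699000 reads per library, limits every count here. No library could be left out, since each value joins 3 libraries. No paired analysis was possible because wild type had 1 library and the values are joined.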
